A study of Mus musculus with 14 samples.

Results

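The genes described here are 31 immune and inflammatory genes measured inside the outlines of mouse hippocampal neurons, out of 255 genes in the count table used here. They were chosen by name, as the complement, integrin, microglial, chemokine, cytokine and leukocyte genes of the table. RNA molecules had been counted by MERFISH, an imaging method that reads a barcode of fluorescent spots from each molecule, on the MERSCOPE instrument, and cells had been outlined with Cellpose, a segmentation program. The table held 13602 outlines annotated as excitatory neurons of the dentate gyrus (DG, 8561 outlines), CA1 (3397) or CA3 (1644), on sagittal cryosections of fresh-frozen hemibrains from 14 samples. The groups were unirradiated mice given vehicle (Ctl-Veh, n = 5), unirradiated mice given RZ (Ctl-Rz, n = 3), irradiated mice given vehicle (Ir-Veh, n = 4) and irradiated mice given RZ (Ir-Rz, n = 2). The labels give RZ only as this abbreviation, and they give no strain, age, dose or time. The number in each sample's name is the assay number of the authors' deposited cell table, where each number has 1 instrument run name, so it is called the imaging run here. The 7 runs held 2 samples each, which belonged to different groups.

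Microglia are the resident macrophages of the brain, the main local source of C1q and a source of lysosomal cathepsins and chemokines. In the adult hippocampus they survey synapses and can mark and engulf them through complement, and cranial irradiation is known to activate them. Neurons themselves carry few transcripts of most of these genes, while their cell bodies are touched by fine processes of microglia and astrocytes, so an outline drawn around a neuron can take in RNA of a neighbouring cell. The members fall into complement genes and integrins (C1qa, C3, C4b, Itgam, Itgax, Itgal), genes of microglial identity and signalling (Aif1, Gpr34, Inpp5d, Abi3), genes of activated microglia and antigen presentation (Cd14, Cd74, Clec7a, Cst7, Ctss, Ctsc, Apoc1, Igf1), chemokines (Ccl3, Ccl4, Ccl6, Cxcl10, Cxcl2), their receptors (Cxcr4, Ccr6), cytokines and their targets (Il1b, Il10, Ifng, Icam1, Ido1) and the T cell gene Cd8a.

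Total counts of the 255 genes per sample ran from 137786 to 434127 in 413 to 1449 outlines, and the median outline held 239 counts. No blank barcodes were used here, so the background was set by 7 genes of cells that the hippocampal pyramidal and granule layers should lack, among them Dbh and Chat, the enzymes of noradrenaline and acetylcholine synthesis, and Fev and Gbx2, transcription factors of serotonin neurons and of the midbrain and thalamus. The others were Adgrg7, Gpr15 and Epha1. The class labels held against marker genes. Fibcd1 averaged 6.44 ± 1.56 counts per outline in CA1 (SD over 14 samples), above the 0.294 of DG, Grm2 averaged 3.09 ± 1.01 in DG against 0.116 in CA1, and Iyd averaged 1.14 ± 0.390 in CA3 against 0.186 in DG. Outlines that stood apart from their class label are described with the microglial and astrocyte genes.

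Most immune genes were present at a level that the background genes also reached. The median member averaged 0.0452 counts per outline, the median background gene 0.0435 and the median of all 255 genes 0.106. Of the 31 members 27 were below 0.1 counts per outline. All 31 together gave 1.84 ± 0.432 counts per outline (SD, n = 14), with a range of 1.18 to 2.66 over samples, out of 279 counts of all genes. In single outlines the median was 1 member count, 27.0% of outlines held none, and 1 outline held 34. MERFISH levels depend on the number of probes per gene, which was not given in the sources used here, so the order of the genes by level is a description only.

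**Figure D1:**
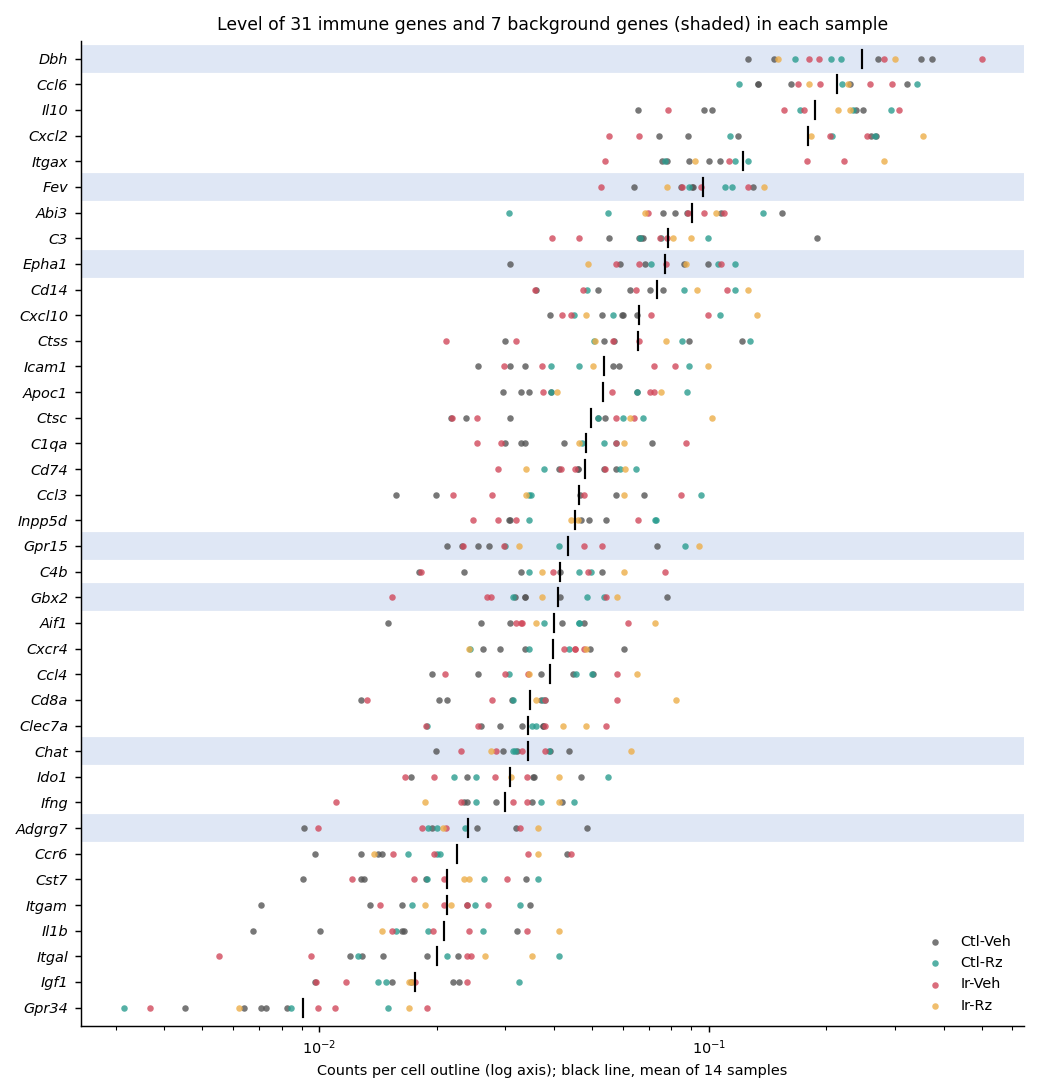
Counts per outline on a log axis for the 31 immune genes and the 7 background genes (shaded rows), with 1 point per sample coloured by group and a black line at the mean of 14 samples. The means of most immune genes lie within the span of the background genes, several lie below it, the lowest being Gpr34 at 0.00906, and Dbh, a background gene at 0.247 counts per outline, stands above Ccl6 at 0.213.

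The members with the highest levels were 2 chemokines, a cytokine and an integrin. Ccl6, a chemokine of myeloid cells, averaged 0.213 ± 0.0709 counts per outline (SD, n = 14), with a lowest sample of 0.119 and a highest of 0.342. Il10, an anti-inflammatory cytokine, averaged 0.186 ± 0.0785, and Cxcl2, a neutrophil chemokine, 0.180 ± 0.0941. Itgax, which encodes the integrin alpha chain CD11c, averaged 0.122 ± 0.0633. None of the 31 members exceeded the highest background gene in all 14 samples, since Dbh reached 0.126 to 0.5 counts per outline. Above the median of the background list in all 14 samples stood 4 members, which were these 4. With Dbh left out of the list, a choice made after its values were seen, Ccl6 exceeded the highest remaining background gene in 14 of 14 samples, Il10 in 13, and Cxcl2 and Itgax in 8 each.

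Sample by sample, Ccl6 and Il10 show the spread. Ccl6 had 0.162, 0.133, 0.229, 0.133 and 0.322 counts per outline in Ctl-Veh 2, 3, 8, 11 and 12, and 0.342, 0.119 and 0.219 in Ctl-Rz 3, 8 and 11. It had 0.192, 0.294, 0.169 and 0.259 in Ir-Veh 1, 2, 9 and 12, and 0.180 and 0.228 in Ir-Rz 1 and 9. The values of the 4 groups overlapped, and both samples of run 12 were among the higher ones. Il10 had 0.102, 0.238, 0.248, 0.0968 and 0.0657 in Ctl-Veh, 0.294, 0.171 and 0.234 in Ctl-Rz, 0.306, 0.155, 0.175 and 0.0783 in Ir-Veh, and 0.215 and 0.230 in Ir-Rz, in the same order of runs. Here both samples of run 12 were the lowest of their groups. Across the fit of all genes on group and run, the run passed the test at an adjusted p under 0.05 for 9 of 31 members (Cxcl10, Cxcl2, Itgax, Il10, Ccl6, Ifng, Itgal, Abi3 and C3) and for 108 of 255 genes, 42.4%, while the group passed for 0 of either (edgeR quasi-likelihood test, Benjamini-Hochberg adjustment).

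The microglial genes C1qa, Itgam, Inpp5d and Ctss were low on average but came together in the same outlines. C1qa encodes a chain of C1q, which starts the classical complement cascade. Itgam encodes CD11b, the alpha chain of complement receptor CR3, Inpp5d the lipid phosphatase SHIP1 of myeloid signalling, and Ctss the lysosomal protease cathepsin S. The promoters of Itgam, Inpp5d and Ctss as given by RefSeq for mouse build GRCm38.p6, from 250 bases before to 50 after the gene start, are shown because these genes were found together and because the factor PU.1, which directs the microglial programme, binds sites with the core GAGGAA. The windows are chr7:128062390-128062689 for Itgam, chr1:87620062-87620361 for Inpp5d and chr3:95526536-95526835 for Ctss, all on the plus strand and written 5′ to 3′, with capitals marking GAGGAA or its reverse complement TTCCTC.
Itgam: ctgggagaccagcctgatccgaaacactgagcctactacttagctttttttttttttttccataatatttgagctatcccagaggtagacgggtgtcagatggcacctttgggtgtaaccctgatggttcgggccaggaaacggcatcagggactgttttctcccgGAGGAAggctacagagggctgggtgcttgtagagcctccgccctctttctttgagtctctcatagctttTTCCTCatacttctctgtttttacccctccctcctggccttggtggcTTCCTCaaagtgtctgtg
Inpp5d: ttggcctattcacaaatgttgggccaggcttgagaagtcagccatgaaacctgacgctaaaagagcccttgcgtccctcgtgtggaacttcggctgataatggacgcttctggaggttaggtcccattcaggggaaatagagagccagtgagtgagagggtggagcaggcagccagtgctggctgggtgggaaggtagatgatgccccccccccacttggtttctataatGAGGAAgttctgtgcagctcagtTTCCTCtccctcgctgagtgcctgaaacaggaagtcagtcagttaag
Ctss: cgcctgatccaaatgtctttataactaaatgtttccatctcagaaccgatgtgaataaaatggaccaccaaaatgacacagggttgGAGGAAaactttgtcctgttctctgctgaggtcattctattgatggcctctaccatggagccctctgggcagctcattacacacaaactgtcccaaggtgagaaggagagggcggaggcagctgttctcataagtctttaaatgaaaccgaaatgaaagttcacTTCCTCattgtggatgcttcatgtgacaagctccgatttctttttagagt
Itgam held 3 matches, and Inpp5d and Ctss 2 each. The same letters on either strand occurred in 28.3% of 32851 mouse promoters of this length, and in 11 of the 20 members that matched the promoter table, so a match is a description of these letters and not a site.

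Co-detection was measured as the number of outlines holding both genes over the number expected from the share of outlines with each gene within sample, class and depth quartile. Csf1r, the receptor for colony stimulating factor that microglia need to survive, served as the microglial reference and was no member. Itgam and Csf1r shared 41 outlines against 15.5 expected, a ratio of 2.65 (95% exact Poisson interval 1.90 to 3.60, counting error only). Inpp5d and Csf1r shared 81 outlines, a ratio of 2.49 (1.98 to 3.09), Ctss and Csf1r 114 outlines, a ratio of 2.34, and C1qa and Csf1r 67 outlines, a ratio of 1.94 (1.5 to 2.46). Only these 4 of the 31 members had a ratio above 1.5 with Csf1r, a threshold chosen after the values were seen, and the 7 background genes lay between 0.915 and 1.22. Csf1r was also the partner with the highest ratio of each of the 4, out of at least 248 genes considered.

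The same association was seen in most samples. The ratio of Ctss with Csf1r was above 1 in 14 of 14 samples (1.17 to 6.63), that of Inpp5d in 13, and those of C1qa and Itgam in 12 each. The counts in single samples were small. Itgam with Csf1r had 0.308 (Ir-Veh 12) to 2.21 (Ctl-Veh 12) outlines expected, so 1 shared outline could bring a ratio above 1. The 6.63 of Ctss in Ir-Veh 2 was 5 outlines against 0.755 expected. Among the members themselves, C1qa and Itgam shared 28 outlines against 14.7 expected, C1qa and Ctss 76 against 41.2, and Itgam and Ctss 33 against 18.2, with ratios of 1.91, 1.85 and 1.82. Of 457 member pairs with 5 or more outlines expected, 3.94% had a ratio above 1.5, against 0.573% of 32283 pairs of all genes and 0 of 21 pairs of background genes. Of 216 pairs of a member with a background gene 0.926% did, the highest being Il1b with Adgrg7 at 1.88. Member ratios also spread more widely in both directions, with a 5th percentile of 0.72 against 0.867 for pairs of all genes. Some of the highest rested on few outlines, as Cst7 with Il1b at 1.86 (0.988 to 3.17). How far low counts make up the gap between these shares was not tested. Gene pairs share outlines and genes and are not independent, so these shares are descriptions.

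**Figure D2:**
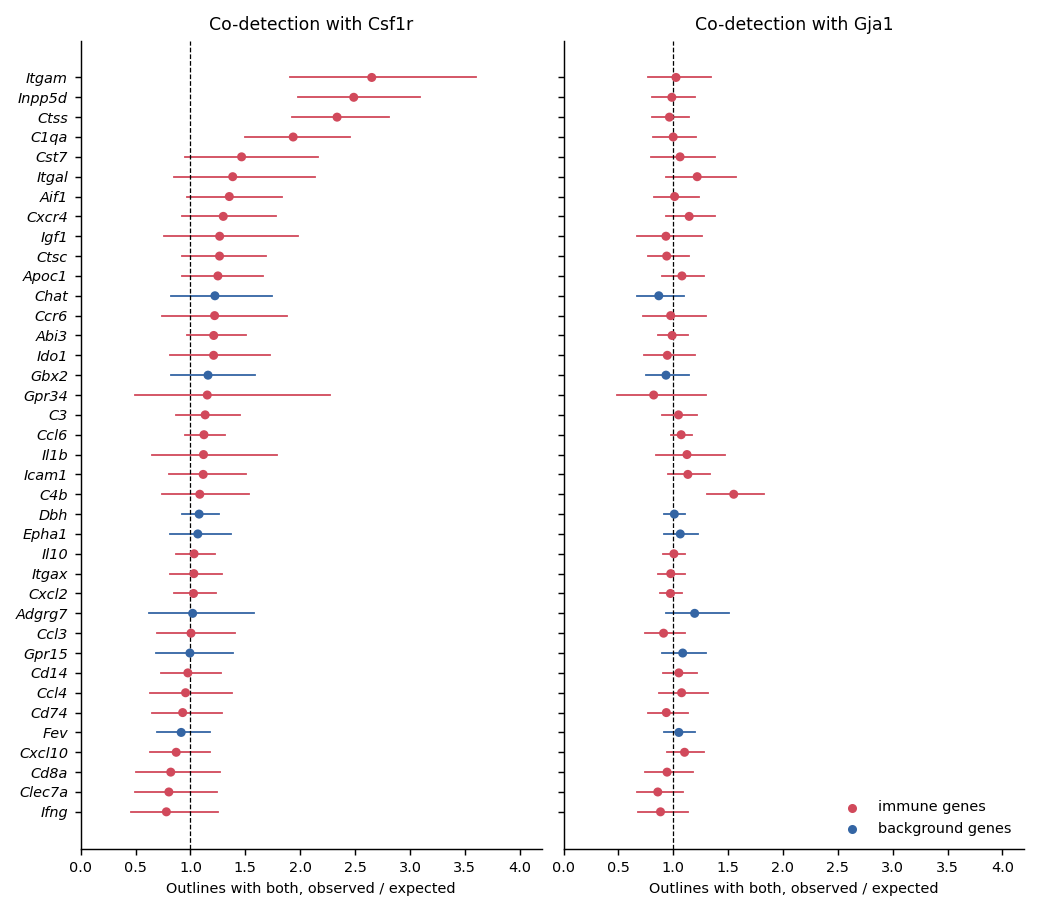
Ratio of observed to expected outlines that hold a gene together with Csf1r (left) or with the astrocyte gene Gja1 (right), for 31 immune genes (red) and 7 background genes (blue), with 95% exact Poisson intervals and a dashed line at 1. Itgam, Inpp5d, Ctss and C1qa stand apart on the left at 1.94 to 2.65, and C4b on the right at 1.55.

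Counts of these 4 genes rose with the number of Csf1r counts in the outline. Ctss averaged 0.0512 counts in the 12979 outlines with no Csf1r, 0.153 in the 531 with 1, 0.364 in the 55 with 2 and 1.70 in the 37 with 3 or more. Inpp5d went from 0.0372 to 1.24 over the same steps, C1qa from 0.0413 to 0.946 and Itgam from 0.0187 to 0.459. Of the 7 background genes Fev moved the most over these steps, from 0.0923 to 0.270, while Dbh was 0.252 with no Csf1r and 0.243 with 3 or more. The median total was 235 counts in outlines with no Csf1r and 330 with 3 or more, a smaller step than that of the 4 genes.

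**Figure D3:**
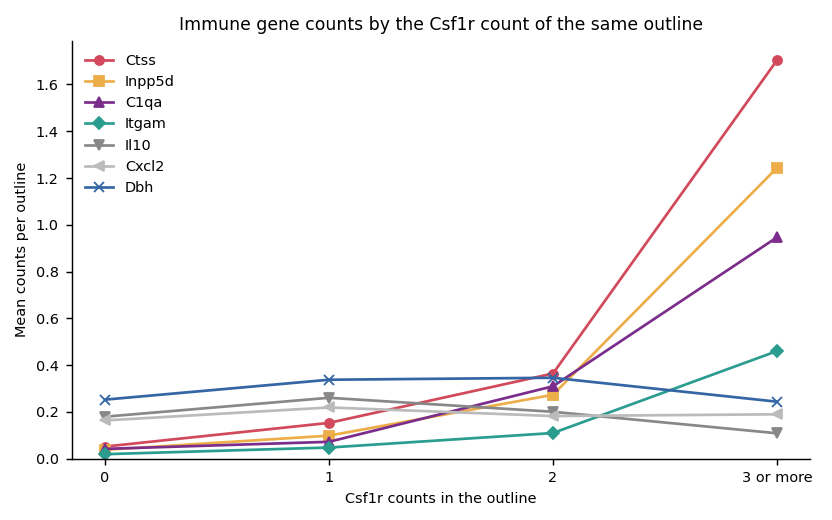
Mean counts per outline of 6 immune genes and the background gene Dbh, by the number of Csf1r counts in the same outline (0, 1, 2, and 3 or more, with 12979, 531, 55 and 37 outlines). Ctss, Inpp5d, C1qa and Itgam climb to between 0.459 and 1.70, while Il10, Cxcl2 and Dbh stay below 0.4.

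Mean counts of other genes known from microglia rose over the steps of Csf1r counts to different degrees or not at all. Abi3, an actin regulator, went from 0.0868 to 0.324 counts per outline between no Csf1r and 3 or more, Cxcr4, the receptor for Cxcl12, from 0.0365 to 0.216, and Aif1, the gene of the microglial protein Iba1, from 0.0362 to 0.135. Cd74, the invariant chain of antigen presentation, went from 0.0483 to 0.162. The top step held only 37 outlines, and Fev, the background gene that moved the most, also rose. Within sample, class and depth quartile, the co-detection ratio of Cd74 with Csf1r was 0.929 (0.651 to 1.29). That of Abi3 was 1.21 (0.964 to 1.504) and that of Aif1 1.35 (0.971 to 1.84), so all 3 intervals included 1. The ratio of Cxcr4 is given with the chemokine receptors. Clec7a, the receptor dectin-1 of activated microglia, was 0.0341 with no Csf1r and 0.0270 with 3 or more. Itgax was 0.114 and 0.108. Cst7, a cathepsin inhibitor that rises in activated microglia, was 0.0199, 0.0414, 0.0545 and 0 over the 4 steps, and higher in outlines with Csf1r in 10 of 14 samples. Apoc1, an apolipoprotein gene, was 0.0505, 0.0753, 0.145 and 0, and higher with Csf1r in 11 of 14 samples. The 37 outlines of the top step make a value of 0 a weak bound, as 3 counts over 37 outlines would be 0.0811 per outline. Gpr34, a microglial receptor, was the lowest of all 255 genes at 0.00906 counts per outline, and its ratio with Csf1r was 1.15 with an interval of 0.498 to 2.27.

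A small cluster of the deposited Leiden clustering was rich in microglial transcripts. Leiden cluster 9 held 10 outlines from 7 samples, all annotated as DG neurons, with 11.5 counts of Csf1r and 4.40 of Cx3cr1 per outline. The 5 members with the most counts there were Ctss with 3.10 per outline, C1qa with 2.60, Inpp5d with 2.60, Itgam with 1.30 and Abi3 with 0.900. The members made up 4.15% of the counts of this cluster, against 0.575% to 0.853% in the 4 clusters of over 1000 outlines. Grm2, the DG marker, was at 3.60 counts per outline in the same 10 outlines, so both sets of transcripts lay within these outlines. It held 9 of the 37 outlines with 3 or more Csf1r counts, so most of those lay elsewhere. Which genes the clustering used is not given, so the level of these genes in the cluster is a description. Without the 62 outlines of all clusters of under 100 outlines, the ratios with Csf1r were 2.36 for Itgam, 2.24 for Inpp5d, 2.20 for Ctss and 1.71 for C1qa.

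Beyond this cluster the 4 genes were spread thinly. Outlines with 3 or more counts numbered 12 for Ctss, 7 for Inpp5d, 5 for C1qa and 2 for Itgam, of which 8, 4, 1 and 0 lay outside cluster 9. Of those outside it, 5 for Ctss, 3 for Inpp5d and 1 for C1qa also held Csf1r. Among the 5 nearest outlines in the same sample, Itgam was found 1.38 times as often next to an Itgam outline as its share within sample, class and depth quartile gives (58 against 42.2, above 1 in 11 of 14 samples). Its interval was 1.04 to 1.78, and the ratios of C1qa, Inpp5d and Ctss were 0.959, 1.005 and 0.971. Some other members lay well below 1, namely Ccl4 at 0.668 (above 1 in 1 of 14 samples), Cst7 at 0.695 and Clec7a at 0.722. Their intervals excluded 1, as did those of Ctsc, Itgax and Ccl6 above it. Background genes lay between 0.937 and 1.11. The ratio of Itgam is therefore a description only. The unit of the positions was not stated, so no distance is given.

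C4b, the complement component C4, had other partners than Csf1r. Its outlines held Gja1, the gap junction gene of astrocytes, in 141 cases against 90.9 expected, a ratio of 1.55 (1.31 to 1.83), above 1 in 13 of 14 samples, while its ratio with Csf1r was 1.09. The gene Cbs had a slightly higher ratio with C4b, 1.57 (1.17 to 2.07) on 51 outlines. Without the clusters of under 100 outlines the ratio with Gja1 was 1.49. C4b averaged 0.0307 counts in outlines with no Gja1, 0.0546 with 1, 0.116 with 2, 0.156 with 3 to 4 and 0.481 with 5 or more. Dbh was 0.250 and 0.272 at the 2 ends of the same scale, and C3 0.0742 and 0.0741. Of the 5 outlines with 3 or more C4b counts, 4 lay in Leiden cluster 6, which held 24 outlines with 9.75 counts of Gja1, 1.5 of Aqp4 and 1.04 of C4b each. The steps of Gja1 counts were not repeated without this cluster. C3, the central component of the cascade, had 0.0782 ± 0.0356 counts per outline, and its ratios were 1.13 with Csf1r and 1.05 with Gja1.

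A few members differed in level between the classes, and on each scale their share was near or below that of all genes. Per outline, 6 members (Aif1, Ctsc, Ccl6, Cxcl2, Cxcr4 and Icam1) were higher in CA3 than in DG in all 14 samples, as were 2 of 7 background genes and 66 of 255 genes. The median outline held 311 counts in CA3 and 204 in DG. Per 1000 counts the members were 4 (Aif1, Ctsc, Ccl6 and Cxcr4), with 0 of 7 background genes and 32 of 255 genes. The background gene Gpr15 came close, being higher in CA3 in 13 of 14 samples. Its level per count in CA3 over that in DG was 2.24, against 2.06 for Aif1, 2.33 for Ccl6, 3.22 for Cxcr4 and 3.51 for Ctsc. After thinning each outline to 100 counts 1 member was left, Ctsc, with 0 of 7 background genes and 23 of 255 genes, and this step left out 1385 DG, 253 CA1 and 171 CA3 outlines of lower depth. How the classes were assigned is not given in the sources used here, and they may rest on these counts, so no test was made between them.

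Ctsc encodes cathepsin C, a lysosomal protease that activates granule proteases of immune cells. It averaged 401 ± 186 counts per 1000000 counts (CPM) in CA3 (SD, n = 14), 148 ± 70.9 in CA1 and 114 ± 60.0 in DG. In CA3 its samples ran from 123 in Ir-Veh 2 to 847 in Ir-Veh 9. Outlines with a Ctsc count after thinning were 3.95% in CA3 and 1.07% in DG, and 11.1% and 2.55% before it. Ccl6 averaged 1503 ± 879 CPM in CA3 and 645 ± 220 in DG, and 57 of the 78 outlines with 3 or more Ccl6 counts were in CA3. Cxcr4 had 284 ± 93.6 in CA3, 159 ± 47.8 in CA1 and 88.2 ± 34.4 in DG, and Aif1 had 232 ± 63.8, 148 ± 60.5 and 113 ± 42.7.

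**Figure D4:**
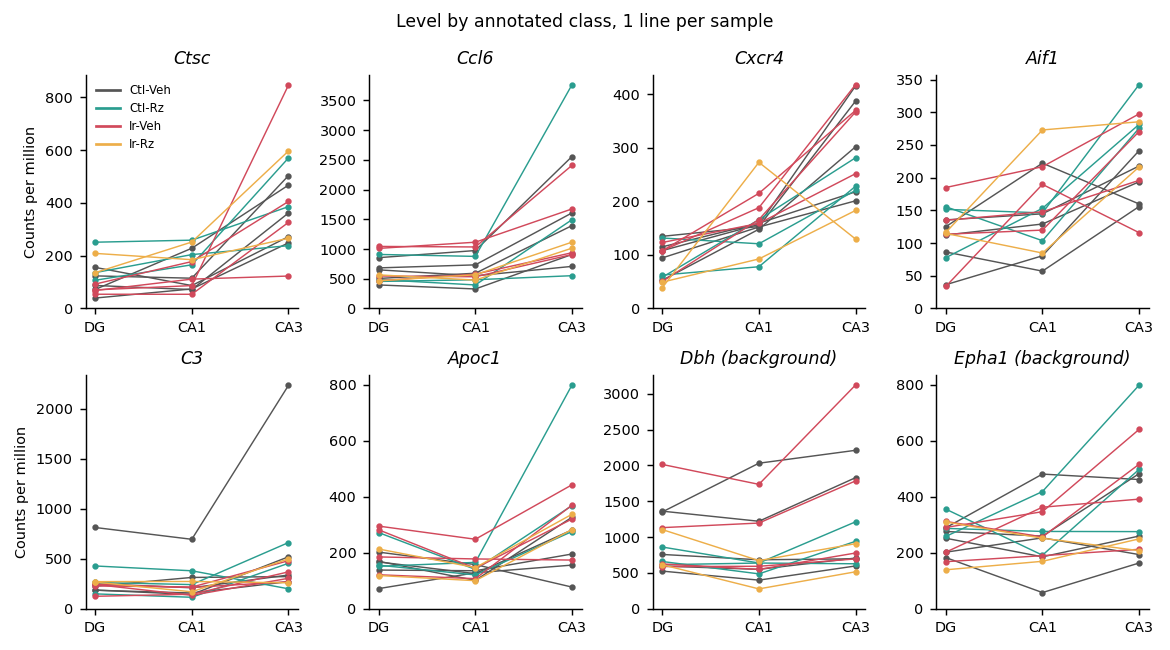
Counts per 1000000 counts (CPM) of 6 immune genes and 2 background genes in DG, CA1 and CA3, with 1 line per sample coloured by group. Ctsc and Ccl6 are higher in CA3 than in DG in every line, at 401 against 114 and 1503 against 645 CPM on average, and 1 Ctl-Veh sample stands apart for C3.

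Ctsc was not spread evenly over CA3. Its partners with the highest co-detection ratio were Cacng5, with 115 shared outlines and a ratio of 1.82, and Acan, with 127 and a ratio of 1.59. Both were named after their values were seen; Cacng5 encodes an AMPA receptor auxiliary subunit and Acan the core protein of perineuronal nets, and both are known from CA2 neurons. In CA3 outlines Ctsc averaged 0.0972 counts with no Cacng5 (1472 outlines), 0.269 with 1 (108), 0.567 with 2 (30) and 0.735 with 3 or more (34). Over the 12 samples with such outlines, those with 2 or more Cacng5 counts averaged 0.766 ± 0.306 Ctsc counts against 0.0955 ± 0.0595 with none, higher in 12 of 12, while Dbh was higher in 3 of 12. Of the 8 outlines with 3 or more Ctsc counts 7 were in CA3, and 4 also held Csf1r. Neighbouring outlines also shared it, with 256 Ctsc neighbours against 200 expected, a ratio of 1.28 that was above 1 in 11 of 14 samples. Ctsc averaged 0.0432, 0.0810, 0.127 and 0.162 counts over the 4 steps of Csf1r counts and was higher with Csf1r in 12 of 14 samples. Its co-detection ratio with Csf1r, which holds class and depth constant, was 1.27, with an interval of 0.926 to 1.69.

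Most other members gave few outlines with several counts. Il1b, Ifng, Cst7, Itgal, Ccr6, Clec7a, Cd74, Igf1, Aif1, Gpr34 and Ccl3 never exceeded 2 counts in an outline, and Cd8a, Ido1, Cxcl10 and Ccl4 never exceeded 3. Il1b, the main inflammasome cytokine, averaged 0.0208 ± 0.00966 counts per outline, and Ifng, the cytokine of activated T cells, 0.0300 ± 0.00973. Cd8a, a chain of the cytotoxic T cell co-receptor, averaged 0.0346 ± 0.0181. The background genes Adgrg7, Chat and Gbx2 averaged 0.0240, 0.0342 and 0.0408. Variance over mean within sample, class and depth quartile was under 1.1 for 27 of the 31 members, close to the 1 of random counting; the others were Ctss at 1.27, Inpp5d at 1.21, C4b at 1.18 and C1qa at 1.11.

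Chemokines and their receptors were not found together with Csf1r or Gja1 beyond the background genes, apart from the 1.30 of Cxcr4 with Csf1r, whose interval was 0.923 to 1.78. Cxcr4 and Ccr6 shared 27 outlines against 14.5 expected, a ratio of 1.86 (1.23 to 2.71). Background genes also reached such ratios with their highest partner. Chat with Anpep was at 2.06 (1.22 to 3.26), and Adgrg7 with the member Il1b at 1.88 (1.08 to 3.06). Icam1, the endothelial and microglial ligand of LFA-1, averaged 0.0536 ± 0.0237 counts per outline, and Ido1, which degrades tryptophan, 0.0309 ± 0.0114. The remaining members Ccl3, Ccl4, Cxcl10, Cd14 and Igf1 had ratios with Csf1r of 1.01, 0.955, 0.87, 0.976 and 1.27.

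The comparison of irradiated with unirradiated mice given vehicle asks what radiation changed. Counts were summed per sample and fitted over all genes and all 14 samples with edgeR's quasi-likelihood test, and none of the 31 members passed at an adjusted p under 0.05, as did 0% of the 255 genes. At an unadjusted p under 0.05 by edgeR stood 1 member, against 1.57% of all genes. By DESeq2 2 members did, against 7 of 255 genes. With the imaging run as a replicate block 3 members did, against 5.49% of genes. Of the members 19 of 31 had a higher value in Ir-Veh, against 52.9% of all genes, with a median log2 fold change of 0.17 against 0.022. Nothing in the labels ties each sample to its own animal, and the p-values cover the spread among these 14 samples and no more. In these sums, fewer outlines that touch a cell type and less RNA per cell cannot be told apart.

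The member with the smallest p was Apoc1. Levels over all outlines are TMM-scaled CPM, counts of a gene per 1000000 counts of the 255 genes. Apoc1 had 179, 154, 182, 102 and 159 in Ctl-Veh 2, 3, 8, 11 and 12, and 188, 343, 200 and 198 in Ir-Veh 1, 2, 9 and 12. All 4 Ir-Veh values were above the Ctl-Veh values, 3 of them by a small margin. The log2 fold change was 0.58 ± 0.27 (SE), with an adjusted p of 0.984 by edgeR, and 0.33 without Ir-Veh 2. Within runs, Apoc1 was 343 against 179 in run 2 and 198 against 159 in run 12.

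Ctss, Ccr6, Il1b and C3 followed. Ctss averaged 256 ± 69.5 in Ctl-Veh (SD, n = 5) and 163 ± 49.3 in Ir-Veh (n = 4), with 163, 255, 338, 306 and 218 in the first and 221, 101, 160 and 169 in the second, so the groups overlapped (log2 fold change -0.66 ± 0.32). Ccr6, the receptor for Ccl20, averaged 67.7 ± 30.0 and 104 ± 19.7 (0.58 ± 0.32), and Il1b 59.4 ± 22.2 and 90.6 ± 28.1 (0.56 ± 0.33). Blocking on the run, the Il1b value was 1.33, with 72.8 against 36.7 in run 2 and 128 against 40.6 in run 12. C3 had 302, 845, 187, 229 and 273 in Ctl-Veh and 250, 187, 221 and 244 in Ir-Veh. Its log2 fold change of -0.70 ± 0.36 rested on Ctl-Veh 3 and was -0.20 without it, and -0.43 in the blocked fit. All 5 of these members had the same adjusted p of 0.984 by edgeR.

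The comparison of RZ with vehicle in irradiated mice asks what the treatment changed after radiation. It had 2 Ir-Rz samples, and none of the 31 members passed, as did 0% of genes. At an unadjusted p under 0.05 stood 1 member by edgeR (0.784% of genes) and by DESeq2 (4 of 255 genes). The blocked fit also gave 1 (0.392% of genes). By edgeR this member was Cxcr4 without the block and Ccr6 in the blocked fit. Higher values in Ir-Rz were seen in 13 of 31 members and 47.8% of genes, and the members' median log2 fold change was -0.044 against -0.019. Cxcr4 had 160, 201, 128 and 238 in Ir-Veh 1, 2, 9 and 12 and 86.6 and 119 in Ir-Rz 1 and 9. Both Ir-Rz values were below all Ir-Veh values, and Ir-Rz 9 only slightly below Ir-Veh 9. The log2 fold change was -0.84 ± 0.36, with an adjusted p of 0.990 by edgeR, and -0.53 in the blocked fit.

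Ctsc was higher in both Ir-Rz samples, with 225 and 250, than in the 4 Ir-Veh samples, with 192, 104, 182 and 134, and its log2 fold change of 0.63 ± 0.34, 0.34 in the blocked fit, did not pass either. Itgal, the alpha chain of LFA-1, averaged 95.9 ± 42.9 in Ir-Rz and 55.9 ± 23.5 in Ir-Veh (0.81 ± 0.47), and the value was 0.20 without Ir-Rz 1 and 0.36 in the blocked fit. Ccr6 averaged 69.4 ± 28.2 against 104 ± 19.7 (-0.66 ± 0.43), -0.22 without Ir-Rz 1 and -0.86 in the blocked fit. Apoc1 averaged 165 ± 27.3 against 232 ± 74.3 (-0.51 ± 0.36), -0.25 both without Ir-Veh 2 and in the blocked fit. The comparisons of Ir-Veh with Ctl-Veh and of Ir-Rz with Ir-Veh share the Ir-Veh samples, so opposite signs of Apoc1 and Ccr6 in them are not independent.

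**Figure D5:**
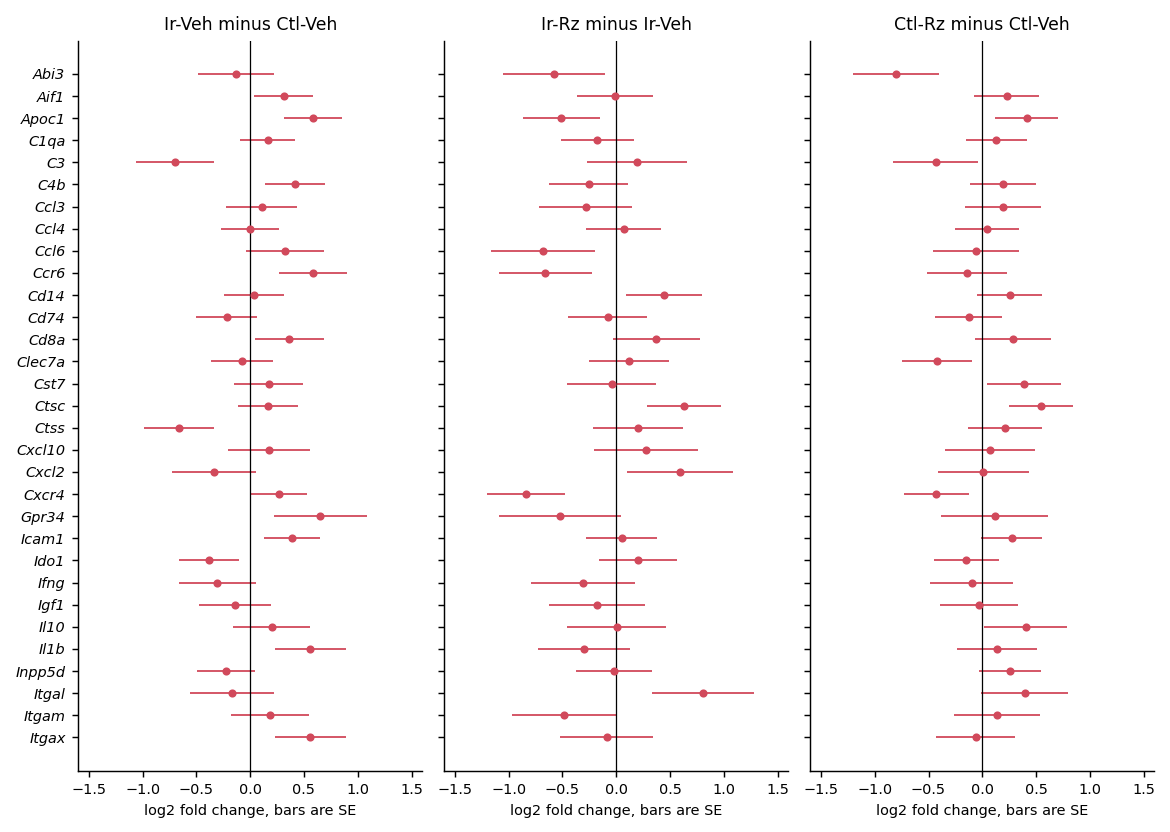
Log2 fold changes with SE of the 31 immune genes from the edgeR fit over all outlines, in 3 panels for Ir-Veh minus Ctl-Veh, Ir-Rz minus Ir-Veh and Ctl-Rz minus Ctl-Veh. All values lie between -0.84 and 0.81, and none passed the adjusted threshold.

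In unirradiated mice RZ was compared with vehicle. Again none of the 31 members passed, as did 0% of genes. At an unadjusted p under 0.05 stood 0 members by edgeR (2.35% of genes) and in the blocked fit (6.27% of genes). By DESeq2 1 member did, against 10 of 255 genes. Higher values in Ctl-Rz were seen in 20 of 31 members and 50.2% of genes, with medians of 0.13 and 0.0053. Abi3 had 477, 364, 213, 371 and 625 in Ctl-Veh and 103, 219 and 377 in Ctl-Rz, with overlapping groups and a log2 fold change of -0.81 ± 0.40 that was -0.44 without Ctl-Rz 3 and -0.53 in the blocked fit. Ctsc averaged 202 ± 57.4 in Ctl-Rz and 136 ± 31.8 in Ctl-Veh (0.55 ± 0.30), and 0.31 without Ctl-Rz 8 and 0.35 in the blocked fit. Cxcr4 averaged 113 ± 28.4 and 150 ± 19.2 (-0.43 ± 0.30), Apoc1 206 ± 43.9 and 155 ± 32.1 (0.41 ± 0.29) and Clec7a 97.3 ± 23.0 and 133 ± 47.1 (-0.42 ± 0.32). Among the values that rest on 1 library, that of Cxcr4 was -0.23 without Ctl-Rz 3 and that of Clec7a -0.22 without Ctl-Veh 2. Blocking on the run left Clec7a at -0.089. The difference between the effects of RZ with and without radiation passed for none of the 31 members, as did 0% of genes. At an unadjusted p under 0.05 stood 0 members by edgeR (1.18% of genes) and in the blocked fit (1.96%). By DESeq2 1 member did, against 4 of 255 genes. Apoc1 had the smallest p by edgeR for this difference, at -0.93 ± 0.46 on the log2 scale.

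Within the classes the low counts left 30 members to test in DG, 24 in CA1 and 20 in CA3, and none passed in any of the 3 comparisons, as did 0% of genes in each class. For Ir-Veh against Ctl-Veh, 1 member in DG, 1 in CA1 and 0 in CA3 stood at an unadjusted p under 0.05 by edgeR and by DESeq2. The shares of genes were 1.59%, 2.15% and 1.83% by edgeR, and 5, 5 and 3 of 255 genes by DESeq2. For Ir-Rz against Ir-Veh the members were 1, 0 and 1 by both tools. Of genes, 1.98%, 1.29% and 1.83% did by edgeR, and 5, 4 and 3 of 255 by DESeq2. For Ctl-Rz against Ctl-Veh the members were 0, 0 and 1 by edgeR, against 1.59%, 0.858% and 2.75% of genes. By DESeq2 they were 0 in each class, against 3, 3 and 6 of 255 genes. In DG, Ccr6 had 36.3, 67.7, 112, 43.2 and 46.0 CPM in Ctl-Veh and 135, 102, 202 and 80.9 in Ir-Veh, a log2 fold change of 1.03 ± 0.37 with an adjusted p of 0.999 by edgeR. Icam1 followed with 0.56 ± 0.31, at 211 ± 97.4 in Ir-Veh and 137 ± 22.7 in Ctl-Veh, and the ranges of both genes overlapped. The blocked fit gave Icam1 0.11. In DG of irradiated mice Ctsc had 209 and 136 in Ir-Rz against 92.5, 68.1, 70.4 and 53.9 in Ir-Veh, so both Ir-Rz values were higher. Its log2 fold change of 1.26 ± 0.48 had an adjusted p of 0.997 by edgeR and was 0.67 without Ir-Rz 1, and that of Cxcr4 was -1.10 ± 0.55, -0.57 in the blocked fit, with 44.0 ± 7.34 in Ir-Rz and 97.3 ± 32.1 in Ir-Veh.

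In CA1, Ctss averaged 208 ± 109 CPM for Ctl-Veh, 111 ± 41.6 for Ir-Veh, 279 ± 193 for Ctl-Rz and 176 ± 107 for Ir-Rz, and Ctsc 115 ± 65.6, 107 ± 52.5, 210 ± 46.9 and 218 ± 47.4 in this order. The CA1 fold changes of smallest p were those of Ctss (-0.95 ± 0.46) and Itgax (0.74 ± 0.38, and 0.40 without Ir-Veh 2) for Ir-Veh against Ctl-Veh, and of Ctsc (0.89 ± 0.50) and Ccl6 (-0.77 ± 0.48) for Ir-Rz against Ir-Veh. The blocked fit gave Ctss -0.41 and Ccl6 -0.055, so the Ccl6 value was nearly lost within runs. In CA3 C3 had -0.997 ± 0.569, which was -0.0088 in the blocked fit and -0.13 without Ctl-Veh 3, where C3 reached 2233 CPM against 271 to 519 in the other Ctl-Veh samples, and Apoc1 had 0.64 ± 0.43. For Ir-Rz against Ir-Veh, Cxcr4 in CA3 had -1.17 ± 0.51 (-0.74 without Ir-Rz 9) and Cxcl2 0.78 ± 0.56 (0.48 without Ir-Rz 9, and 0.33 in the blocked fit). Cxcr4 in CA3 stood at 183 and 130 CPM in Ir-Rz against 367, 418, 252 and 370 in Ir-Veh, with no overlap, while Cxcl2 ranged from 682 to 1453 in Ir-Rz and from 283 to 1167 in Ir-Veh, with overlap. RZ in unirradiated mice gave Abi3 -0.78 ± 0.38 and Ctsc 0.59 ± 0.41 in DG, and Abi3 -0.90 ± 0.46 and Ctsc 0.76 ± 0.42 in CA1. In DG, Abi3 averaged 220 ± 130 CPM for Ctl-Rz and 346 ± 105 for Ctl-Veh, and 267 ± 175 and 468 ± 193 in CA1. Leaving out Ctl-Rz 3 gave Abi3 -0.45 in DG and -0.47 in CA1, and leaving out Ctl-Rz 8 gave Ctsc 0.25 in DG. The blocked fit gave Abi3 -0.59 in CA1 and Ctsc 0.38 in DG. Apoc1 in CA3 had 1.04 ± 0.46, or 0.68 without Ctl-Rz 3, and Ctss -1.25 ± 0.69, or -0.61 without it. Apoc1 in CA3 averaged 481 ± 279 CPM for Ctl-Rz and 207 ± 99.3 for Ctl-Veh, and the groups overlapped.

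The composition of the outlines also varied between samples. CA3 made up 5.23% to 13.9% of the outlines in Ctl-Veh, 9.91% to 13.9% in Ctl-Rz, 10% to 20.4% in Ir-Veh and 9.94% and 24.0% in Ir-Rz, and sums over all outlines hold these shares. Their part in the values of members that are higher in CA3, Ctsc among them, was not tested beyond the values within classes. Outlines with Csf1r were 2.92%, 3.44%, 7.98%, 5.31% and 4.74% in Ctl-Veh, 5.91%, 8.18% and 8.39% in Ctl-Rz, 4.04%, 2.55%, 3.78% and 2.21% in Ir-Veh, and 3.38% and 4.84% in Ir-Rz. The Ir-Veh values were among the lower ones and overlapped those of Ctl-Veh. The 8 measured of 13 listed microglia markers summed to 0.200 to 0.509 counts per outline in Ctl-Veh, 0.385 to 0.464 in Ctl-Rz, 0.233 to 0.554 in Ir-Veh and 0.304 to 0.446 in Ir-Rz. The 4 endothelial markers summed to 0.151 to 0.271, 0.228 to 0.450, 0.174 to 0.285 and 0.265 to 0.358 in the same order, and the 4 T cell markers to 0.0830 to 0.106, 0.0802 to 0.145, 0.0562 to 0.145 and 0.107 to 0.186. No defining marker of these lists was at 0 over all outlines, and the part of these cells in the group values was not tested.

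Of the 4 members found with Csf1r, C1qa, Itgam and Inpp5d passed no test between groups, as given for Ctss above. For the vehicle groups, C1qa averaged 159 ± 29.0 TMM-scaled CPM without radiation (Ctl-Veh, SD, n = 5) and 178 ± 52.7 with it (Ir-Veh, n = 4), and for the RZ groups 175 ± 15.7 (Ctl-Rz, n = 3) and 157 ± 11.9 (Ir-Rz, n = 2), with a log2 fold change of 0.16 ± 0.26 for Ir-Veh against Ctl-Veh. Itgam averaged 75.5 ± 41.6, 85.3 ± 28.9, 82.5 ± 24.0 and 60.2 ± 9.34, and Inpp5d 164 ± 30.2, 140 ± 35.6, 194 ± 54.2 and 136 ± 32.0, in the same order. The group ranges of C1qa and Inpp5d overlapped throughout, and those of Itgam overlapped except that both Ir-Rz samples (53.6 and 66.8) lay just below the lowest Ir-Veh sample at 67.7 and the lowest Ctl-Rz sample at 68.5. In CA3 Ctss was at 0 counts in Ctl-Veh 2.

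Of 10 further immune genes measured outside the list, 0 passed in any comparison. Csf1r had a log2 fold change of -0.38 ± 0.28 in Ir-Veh against Ctl-Veh, where the microglial receptor Cx3cr1 had 0.67 ± 0.29, both with an adjusted p of 0.984 by edgeR. In Ir-Rz against Ir-Veh they had -0.24 ± 0.36 and -0.48 ± 0.38.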

How the data were processed

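The deposited table held raw counts, whole numbers of RNA molecules per outline, and the authors' deposited cell table gave sample, class, Leiden cluster, total and position; per the labels, sections were imaged on MERSCOPE and outlined with Cellpose. The sources used here do not give software versions, the full gene panel or how classes were assigned. Per-sample columns left unused numbered 0. Genes are named by the table's symbols; all 31 members matched RefSeq.

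Members and lists were chosen with earlier results of these data known. Counts were summed per sample, and per class with 20 or more outlines, and tested with edgeR 4.0.16 (TMM, filterByExpr, quasi-likelihood, all 14 samples, group only) in R 4.3.3, Benjamini-Hochberg adjusted over all genes, called at 0.05. The code was tested on simulated data. Named were members above background in all samples, the 5 of smallest p per comparison, the 2 of smallest p per class, the 5 highest in the Csf1r-richest cluster, and top co-detection partners. Class values are CPM on plain totals, and other CPM are TMM-scaled. Outlines were never replicates in the tests between groups, and none were removed. The co-detection and neighbour intervals rest on counts of outlines and leave out the spread between samples. Alternatives were DESeq2 1.42.0, other library sizes and filters, the run as a block, and each sample left out. Samples of a run deviated together (correlations 0.293 to 0.661 over 7 runs), and the deposited assay numbers equal those of the titles, so these numbers paired samples. Replicates differed beyond sampling noise (chi-square per degree of freedom at least 32.2).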

Additional observations from a re-analysis of the deposited data

Results flagged for a closer look

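In 3 of 20 groups of 4 or 5 samples checked over the genes named in the comparisons, 1 sample lay far from the rest by Dixon's test, where chance gives about 1 in 20 groups. Apoc1 was 343 TMM-scaled CPM in Ir-Veh 2, against 188 to 200 in the other Ir-Veh samples. C3 was 845 in Ctl-Veh 3, against 187 to 302 in the other Ctl-Veh samples. Ccr6 was 120 in Ctl-Veh 8, against 49.0 to 64.6 in the others.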

How the results depend on the processing

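The count of members called was 0 in each comparison, over all outlines and per class, and stayed 0 under DESeq2, the replicate block by imaging run and without each sample in turn (0 to 0); over all outlines also under the other library sizes and filters and with the compared groups alone for the 3 comparisons between groups, and per class with 50 or more outlines. The 33 log2 fold changes named kept their direction in all 651 values under other settings, but their size changed under the replicate block. Several shrank, C3 in CA3 from -0.997 to -0.0088, Ccl6 in CA1 from -0.77 to -0.055, Icam1 in DG from 0.56 to 0.11 and Clec7a from -0.42 to -0.089. Others grew, among them Il1b in Ir-Veh against Ctl-Veh from 0.56 to 1.33. Ccr6 in Ir-Rz against Ir-Veh went from -0.66 to -0.86, and Ccr6 in DG in Ir-Veh against Ctl-Veh from 1.03 to 1.25. Members above background in all samples numbered 0 against the highest background gene, 4 against the median of the list and 1 without Dbh, the last chosen after the data were seen, as were leaving out samples within classes, the tests of run, the further settings for the difference between effects of RZ, the counts by Csf1r, Gja1 or Cacng5, the neighbour ratios and the 1.5 threshold. Members higher in CA3 than DG in all samples numbered 6, 4 per 1000 counts and 1 after thinning. Members above a ratio of 1.5 with Csf1r numbered 4, and 10 when depth was not held constant. Unadjusted counts under the replicate block were 3, 1 and 0 for the 3 comparisons against 1, 1 and 0 without it. Depth limits these values, since 27 of 31 members had under 0.1 counts per outline and the median SE of a member was 0.32, 0.42 and 0.35 on the log2 scale.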
